A study of Mus musculus with 3 samples.

Results

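Transthyretin and the genes that take up, activate, inactivate, sense and store thyroid hormone were described in the choroid plexus epithelium (CPE) of the mouse. There were 8 such genes, *Ttr*, *Slco1c1*, *Dio1*, *Dio2*, *Dio3*, *Thra*, *Thrb* and *Crym*. Every probe that carries the name of one of them on the array was taken, which gave 12 probes of 41174. Within these genes the probes were taken by gene name only, with no measured value used. The genes themselves were chosen with earlier results of these data known.

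The CPE of 3 healthy adult wild type C57BL/6 mice, labelled mouse 1, mouse 2 and mouse 3, was cut from frozen brain sections by laser dissection microscopy. The epithelium was taken from the lateral ventricles, and its amplified RNA was labelled with the red dye Cy5. On each of 3 arrays it was hybridised against a common reference, RNA of the retinal pigment epithelium and choroid (RPE/choroid) of wild type C57BL/6 mice, labelled with the green dye Cy3. The dyes were not swapped, so a difference between the dyes at a probe and a difference between the tissues cannot be told apart, and the RPE/choroid is a mixed tissue, so that a ratio compares one epithelium with several cell types.

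The CPE is the epithelium between blood and cerebrospinal fluid, and transthyretin, which it makes and secretes, binds thyroxine and, together with the retinol binding protein, retinol. Thyroxine enters cells through transporters. The deiodinases then remove iodine from it, either to make the active hormone triiodothyronine or to inactivate both hormones. Triiodothyronine acts through the nuclear receptors encoded by *Thra* and *Thrb*, which bind DNA with a retinoid X receptor as partner.

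The arrays differed in background. The median of the 314 negative control spots in the CPE channel was 77.5 in mouse 1, 78.1 in mouse 2 and 357 in mouse 3, and in the reference channel it was 108, 105 and 229. The log2 intensities of the reference correlated with r = 0.996 between the arrays of mice 1 and 2, but with 0.954 for both pairs that include mouse 3, across 17950 probes that share spots and RNA and are not independent. Of all probes, 44.9% were well above background in CPE on all 3 arrays. Among the CPE markers, 9 of 10 on the array passed the threshold given below with a higher CPE signal (median log2 ratio 2.60), and *Otx2*, also a gene of the pigment epithelium, was the exception. Of the photoreceptor markers all 6, and of the pigment cell markers 7 of 8, were lower in CPE, with median log2 ratios of −4.88 and −4.53.

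A probe was tested when CPE, the reference or both rose well above background on each of the 3 arrays. Of the 12 probes 9 met this, and they cover every gene but *Dio1*. A probe was past the threshold when its adjusted p of limma's moderated test was below 0.05 and its mean CPE over reference ratio was at least 2-fold. This was so for 5 of the 9, against 17.3% of the 25844 tested probes of the array. The probes of *Ttr* and *Slco1c1* were higher in CPE, where 7.09% of all tested probes were higher. Both 3′ probes of *Thrb* and the probe of *Crym* were lower, where 10.2% of all tested probes were lower. The 5 probes belong to 4 of the 7 tested genes, because both *Thrb* probes are of 1 gene. Of 15380 genes, each read at its brightest probe, 8.79% were past the threshold and higher and 11.3% lower. The median log2 ratio of the 9 probes was −0.68, and that of all tested probes −0.04. The intensities given below are as the scanner read them, and the log2 ratios follow background correction and the balancing of the dyes by a loess curve, so the ratios differ from those of the printed intensities. At the 9 probes the curve shifted the log2 ratio by −1.36 to 0.36 in mouse 1, −0.99 to 0.73 in mouse 2 and −1.12 to −0.87 in mouse 3.

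**Figure D1:**
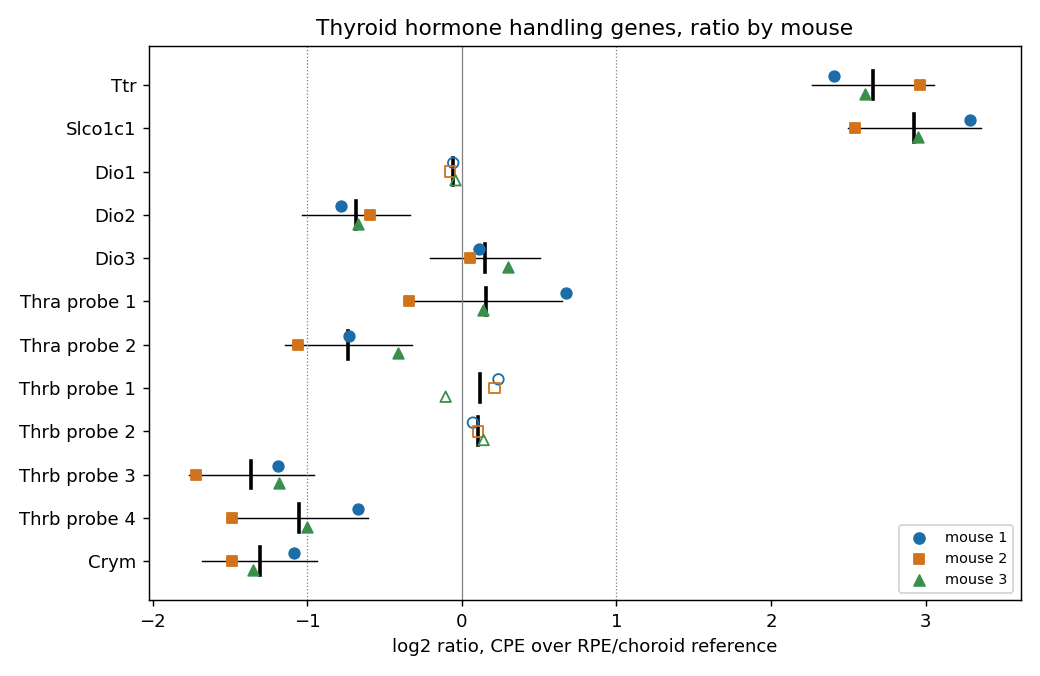
Log2 ratio of CPE over the RPE/choroid reference for the 12 probes, with 1 point per mouse, the mean as a vertical bar and limma's 95% interval as a horizontal line. Probes of a gene are numbered from its 5′ end, open points mark the 3 probes that were not tested, and dotted lines mark a 2-fold difference. All mice lay above 2 for *Ttr* and *Slco1c1* and below −1 for *Crym* and the third probe of *Thrb*.

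Transthyretin, the thyroxine carrier, was at the scanner's ceiling in CPE. In CPE its probe (chr18:20817121-20817181 on the mm8 build, plus strand) read 65394 in mouse 1, 65394 in mouse 2 and 65396 in mouse 3, and it was saturated on all 3 arrays. In the reference the same probe read 4832, 4241 and 5990. The log2 ratios were 2.41, 2.96 and 2.61 in mice 1, 2 and 3, so CPE exceeded the reference in every mouse. Because the CPE value is a ceiling, the mean ratio of the 3 arrays, 6.32-fold higher in CPE, is a lower bound. The mean log2 ratio was 2.66 (SE 0.17, 95% interval 2.26 to 3.05, adjusted p = 3.77e-05, limma, n = 3). The ratios of the 3 mice are therefore those of one ceiling against the reference signal, and a difference in *Ttr* between the mice could not have been seen. The SE, interval and p thus measure the reference signal and the dye balancing, and not the spread of *Ttr* between mice. Its CPE signal lay at percentile 99.98 of all probes. The reference was itself in the high class of its channel, at percentile 98.2. The retinal pigment epithelium also makes transthyretin. Its markers and those of melanocytes were summed at 201604 to 214078 in the reference, a lower limit because *Dct* was saturated there on all 3 arrays, and 4690 to 6753 in CPE, where 7 of 8 were well above background and *Tyr* was not on any array. The part of these cells in the *Ttr* signal was not tested.

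The thyroxine transporter of the organic anion transporter family, *Slco1c1* (also known as OATP14), which moves thyroxine across the barriers of the brain, was the other member in the high class. At its probe (chr6:141525616-141526979, plus strand) CPE read 28849, 13007 and 20465 in mice 1, 2 and 3, and the reference read 1288, 1389 and 1534. No value was saturated, and the CPE and reference values did not overlap. The log2 ratios of 3.29, 2.54 and 2.95 had a mean of 2.93 (SE 0.18, adjusted p = 3.59e-05, limma, n = 3), or 7.61-fold (6.70 to 8.65 within 1 SE). Mouse 2 was lowest in the CPE signal and in the ratio. The percentile ranks were 99.4, 99.0 and 99.4 in the 3 mice. The genes whose ratios over the 3 mice were nearest to those of *Slco1c1*, among 16841 probes measured in both channels, were *1110002E23Rik*, *Msx1* and *Metrn*, with mean absolute differences of 0.12, 0.14 and 0.17 on the log2 scale.

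*Slco1c1* is also known from the endothelium of brain capillaries and from astrocytes. Of the 9 endothelial markers, all were well above background in CPE, 1 was past the threshold and higher (*Tie1*) and 1 lower (*Slc2a1*), with a median log2 ratio of −0.11. Their summed level ran from 18765 to 20874 in CPE and from 52059 to 57691 in the reference. Most of the reference sum was *Slc2a1*, which read 31163, 32044 and 26467 there in mice 1, 2 and 3. The next brightest there, *Kdr*, read 3404, 3528 and 3765 and had a log2 ratio of −0.19. The sums thus do not compare the markers as a set. Of the 8 markers of astrocytes and tanycytes, 7 were well above background in CPE on all arrays. Of these markers, 1 was past the threshold and higher (*Aldh1l1*) and 3 lower, and the summed level was 3836 to 4599 in CPE and 5474 to 7592 in the reference. The brightest in CPE was *Aldh1l1*, which read 2880, 1762 and 3770 in mice 1, 2 and 3. In the reference it was *Gja1*, 1 of the lower markers, which read 2536, 2565 and 1669. These sums do not compare the markers as a set either. The part of these cell types in the *Slco1c1* signal was not tested. Here and below, more cells of a type and more RNA per cell cannot be told apart.

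The RefSeq table holds a start site for 5 of the 8 genes. The 250 bases before that of *Slco1c1*, the member in the high class whose ratio was measured without saturation, are printed to show the sequence next to it (GRCm38.p6, chr6:141524104-141524353, plus strand, 5′ to 3′). Capitals would mark the nuclear receptor half-site AGGTCA or its other strand TGACCT, and the TATA box letters TATAAA or TTTATA. None of these was in the window, which was 42.8% G and C.
Slco1c1: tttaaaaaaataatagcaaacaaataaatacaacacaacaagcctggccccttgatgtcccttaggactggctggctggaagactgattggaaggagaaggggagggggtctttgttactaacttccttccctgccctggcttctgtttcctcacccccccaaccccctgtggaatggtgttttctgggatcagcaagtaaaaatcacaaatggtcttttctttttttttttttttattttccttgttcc
Among 32851 windows of the same length before the start sites of the table, 14.0% held the half-site and 12.4% the TATA box letters on either strand.

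Of the 3 deiodinases, *Dio1* and *Dio2* gave weak signals relative to the negative control spots in all mice, and *Dio3* did in mice 1 and 2 but not in mouse 3. The type 1 enzyme, *Dio1*, which makes triiodothyronine in liver and kidney, was not tested. Its probe (chr4:106789379-106789415, minus strand) read 1.10, 1.03 and 1.19 times the median of the negative control spots in CPE of mice 1, 2 and 3, and 1.11, 1.09 and 1.16 times in the reference. It was well above background in CPE of mouse 3 alone and in the reference of mice 1 and 3. These signals lay within or at the edge of the negative controls, at 1.01, 0.92 and 1.00 times their 95th percentile in CPE, so a *Dio1* transcript was not detectable above the controls. The log2 ratios were −0.06, −0.08 and −0.04.

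The type 2 enzyme, *Dio2*, activates thyroxine in the brain, where it is known from astrocytes and tanycytes. At its probe (chr12:91130186-91130245, minus strand) CPE read 195, 142 and 590 in mice 1, 2 and 3, and the reference 298, 295 and 434. Against the negative controls the CPE signal was 2.52, 1.82 and 1.65 times their median, and that of the reference 2.76, 2.82 and 1.89 times. The high reading of mouse 3 in intensity was thus the lowest relative to its own array. The log2 ratios were −0.78, −0.60 and −0.67 (mean −0.68, SE 0.15, adjusted p = 0.0098, limma, n = 3). The probe was lower in CPE in all 3 mice by 1.61-fold, under the 2-fold limit, with a 95% interval of the log2 ratio from −1.03 to −0.33. A further probe for a type 2 deiodinase transcript, which carries no gene symbol on the array, was at 1.14, 1.04 and 1.28 times the negative controls in CPE, and its ratio was −0.10 (adjusted p = 0.65, limma). It was looked up after the values of the 12 probes had been seen.

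The type 3 enzyme, *Dio3*, inactivates both hormones, and its gene is imprinted. At its probe (chr12:110728714-110728773, plus strand) CPE read 127, 94.0 and 1838 in mice 1, 2 and 3, or 1.64, 1.20 and 5.15 times the negative controls. The reference read 162, 155 and 816, or 1.499, 1.48 and 3.56 times the negative controls. Mouse 3 stood apart in both channels, although the reference was common to the arrays. Of 24122 probes under 2 times the negative controls in the reference of mice 1 and 2, only 107 (0.44%), *Dio3* among them, reached 3 times in that of mouse 3, and all 107 did so in CPE of mouse 3 too. In the other direction, with mice 1 and 3 low, none of 22411 probes did so in mouse 2. Before the loess curve the log2 ratios were −0.25, −0.67 and 1.28, with mouse 3 apart, and the curve moved them by 0.36, 0.73 and −0.98. Over all tested probes the median shift was −0.47, 0.31 and −1.05, so the shift in mouse 3 was common to its array. After it the log2 ratios were 0.11, 0.05 and 0.30 (mean 0.15, SE 0.15, 95% interval −0.20 to 0.51, adjusted p = 0.47, limma, n = 3), a difference that was not past the threshold.

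The percentile rank of *Dio3* in CPE was 48.1, 42.7 and 88.0 in mice 1, 2 and 3. Its moderate class, at 65.8 for the mean level, thus rested on mouse 3, and without that mouse it ranked at percentile 46.2, in the low class. The transcript antisense to *Dio3*, *Dio3as*, had a probe on the other strand, and its CPE signal was also highest in mouse 3. It read 1.54, 1.30 and 3.23 times the negative controls in CPE and 1.77, 1.74 and 2.21 times in the reference (mean log2 ratio −0.05, adjusted p = 0.85, limma). The cause of the readings of mouse 3 was not tested.

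**Figure D2:**
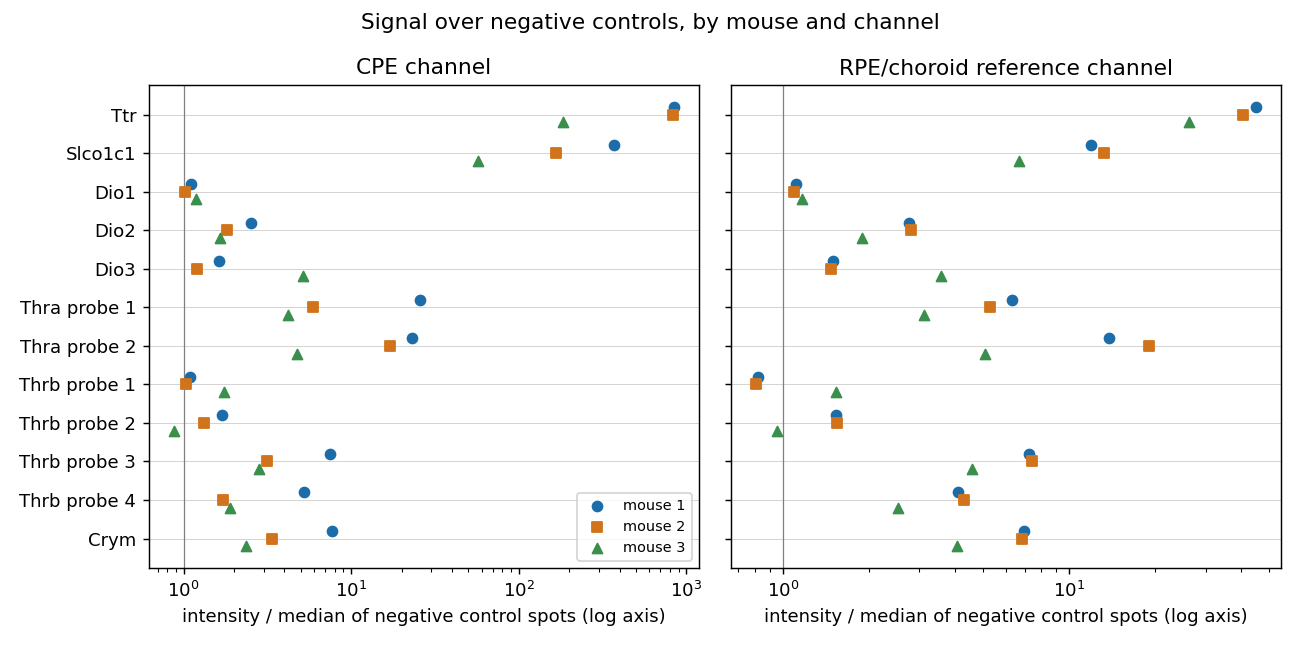
Intensity of each probe divided by the median of the negative control spots of the same array and channel, on log axes, for CPE (left) and the reference (right), with 1 point per mouse and a line at 1. *Ttr* and *Slco1c1* lie far to the right in CPE, *Dio1* lies next to 1 in both channels, and *Dio3* and the first *Thrb* probe are highest in mouse 3 in both channels. *Ttr* is at the scanner's ceiling in CPE.

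Both probes of the receptor gene *Thra* were well above background in both channels of all mice. The probe nearer the 3′ end (chr11:98581132-98581191, plus strand) read 1783, 1326 and 1696 in CPE of mice 1, 2 and 3, and 1493, 1993 and 1168 in the reference. Its log2 ratios were −0.73, −1.06 and −0.41 (mean −0.73, SE 0.18, 95% interval −1.15 to −0.32, adjusted p = 0.014, limma, n = 3). The ratio was below 0 in all mice with a mean of 1.66-fold, under the 2-fold limit, and it depended on the dye balancing. Before the loess curve the log2 ratios were 0.27, −0.59 and 0.55, and with each array centred on its median the mean was −0.085 (adjusted p = 0.87, limma). Without mouse 1 the adjusted p was 0.075, and without mouse 2 it was 0.065. The other probe, 714 bases to the 5′ side (chr11:98580418-98580477, plus strand), read 1997, 461 and 1491 in CPE and 683, 557 and 713 in the reference. Its log2 ratios of 0.67, −0.34 and 0.14 differed in sign between mice (mean 0.16, SE 0.21, 95% interval −0.34 to 0.65, adjusted p = 0.60, limma, n = 3).

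The difference between the *Thra* probes, 5′ minus 3′, was 1.40 in mouse 1, 0.72 in mouse 2 and 0.55 in mouse 3 on the log2 scale of the ratio, so the 5′ probe had the higher ratio in every mouse. Mouse 2 was the lowest at both. Across 3487 genes with probes at least 100 bases apart, the deviation of mouse 2 from the mean ratio of mice 1 and 3 was taken at both ends, and the median of 5′ minus 3′ was −0.33. The same median was 0.18 for each of the other mice. The part of this in the *Thra* values was not tested. Both probes carry one accession, and which of the receptor isoforms each detects is not given in the sources used here.

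*Nr1d1*, which encodes a repressor of the molecular clock, overlaps the end of *Thra* on the other strand. Its probes lay 4111 to 7437 bases beyond the last *Thra* probe, and the brightest had log2 ratios of 1.39, 0.71 and 0.46 in mice 1, 2 and 3 (mean 0.85, SE 0.20, adjusted p = 0.014, limma), higher in CPE and under 2-fold. The other *Nr1d1* probes were at 0.40 and 0.23 (adjusted p = 0.12 and 0.29, limma). The brightest was past the threshold without mouse 3, with the scanner's own ratio and with array weights, at 1.05 in each.

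*Thrb*, the other receptor gene, had 4 probes, and only those near its 3′ end were tested. The third probe (chr14:16829553-16829612, plus strand) read 579, 246 and 1009 in CPE of mice 1, 2 and 3, and 785, 776 and 1050 in the reference. Its log2 ratios were −1.19, −1.72 and −1.18, lower in CPE in each mouse (mean −1.36, SE 0.17, adjusted p = 8.6e-04, limma, n = 3, 2.57-fold). The genes nearest in ratio to this probe were *Ly6i*, *Acad11* and *Mbnl2*, within 0.04 to 0.06.

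The last *Thrb* probe (chr14:16830185-16830244, plus strand), 632 bases further, read 403, 134 and 671 in CPE and 442, 449 and 581 in the reference. Relative to the negative controls it read 5.21, 1.72 and 1.88 times in CPE and 4.10, 4.29 and 2.53 times in the reference. Its log2 ratios were −0.67, −1.48 and −1.0 (mean −1.05, SE 0.19, adjusted p = 0.0043, limma, n = 3, 2.08-fold). It was lower in every mouse, and mouse 2 was the lowest at both probes. This probe was just past the limit: without mouse 2 its log2 ratio was −0.84 and under 2-fold. Nearest to it in ratio were *9030612M13Rik*, *Plxna2* and *Sertad2*, within 0.03 to 0.05.

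The remaining *Thrb* probes read near the level of the controls. The first (chr14:16775318-16775377, plus strand), 54867 bases before the last, read 1.10, 1.03 and 1.75 times the negative controls in CPE and 0.82, 0.80 and 1.53 times in the reference. It was well above background on the array of mouse 3 alone, in both channels. The second (chr14:16826974-16827033, plus strand) read 1.71, 1.32 and 0.88 times in CPE and 1.54, 1.55 and 0.95 times in the reference, and it was well above background in CPE of mouse 1 and in the reference of mice 1 and 2. Their log2 ratios, between −0.11 and 0.24, were not tested. The third and last probes carry the accessions of single cDNA clones, AK158826 and BC089035, and the first and second carry the RefSeq accession of *Thrb*, NM_009380. The lower calls of *Thrb* thus rest on the probes that had no RefSeq match. Of the probes named *Thrb*, those 632 bases apart were both lower in CPE, and those 3211 and 54867 bases before the last were not well above background throughout the arrays in either channel.

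*Thrb* has 2 start sites in the RefSeq table, which serve its different amino-terminal isoforms, and the array's probes near the 3′ end cannot tell them apart. The 250 bases before each are shown for the letters next to both starts of a receptor gene whose 3′ probes were lower (GRCm38.p6, plus strand, chr14:17660710-17660959 and chr14:17981394-17981643). Capitals mark AGGTCA or TGACCT in the first and TATAAA or TTTATA in the second.
Thrb start 1: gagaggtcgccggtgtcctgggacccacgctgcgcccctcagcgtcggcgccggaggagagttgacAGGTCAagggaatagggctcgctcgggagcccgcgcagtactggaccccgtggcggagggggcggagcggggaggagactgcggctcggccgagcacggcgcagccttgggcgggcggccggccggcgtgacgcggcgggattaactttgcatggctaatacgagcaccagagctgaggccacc
Thrb start 2: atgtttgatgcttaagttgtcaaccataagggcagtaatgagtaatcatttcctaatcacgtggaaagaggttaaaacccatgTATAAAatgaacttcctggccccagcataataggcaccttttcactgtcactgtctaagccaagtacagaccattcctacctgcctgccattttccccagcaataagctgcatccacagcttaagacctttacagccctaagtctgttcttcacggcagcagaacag
The first window held 1 half-site, 184 bases before the start, and no TATA box letters, and was 71.6% G and C. The second held no half-site and had TATA box letters 167 bases before the start, and was 44% G and C. These matches describe the letters only. The windows before *Dio1*, *Dio2* and *Dio3* held no half-site, and those of *Dio2* and *Dio3* had TATA box letters 30 and 31 bases before the start.

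The last member, *Crym*, encodes a cytosolic protein that binds triiodothyronine. At its probe (chr7:119977605-119977664, minus strand) CPE read 593, 265 and 841 in mice 1, 2 and 3, and the reference 751, 720 and 930. Relative to the negative controls this was 7.65, 3.39 and 2.36 times in CPE and 6.96, 6.87 and 4.06 times in the reference. The log2 ratios were −1.08, −1.49 and −1.35 (mean −1.31, SE 0.16, adjusted p = 7.15e-04, limma, n = 3), so *Crym* was lower in CPE in every mouse, by 2.47-fold. Nearest in ratio were *EG383189*, *Errfi1* and *Osgep*, within 0.03 to 0.06. Markers of photoreceptors were summed at 159288 to 165360 in the reference and 4309 to 5985 in CPE, and those of neurons at 17695 to 20172 and 2343 to 3223. Of the 5 stroma markers, 4 were lower in CPE, with summed levels of 14521 to 16924 in CPE and 100736 to 118928 in the reference, a lower limit because *Dcn* was saturated there on 2 of 3 arrays, and of the 8 neuron markers 4 were lower. The part of these cells in the ratios of *Crym* and *Thrb* was not tested.

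The lower calls of *Crym* and *Thrb*, and the lower values of *Dio2* and the 3′ *Thra* probe, depended on how the dyes were balanced. The loess curve follows the dye difference along the brightness of the probes. With each array centred on its median in its place, the log2 ratio of *Crym* was −0.86 (adjusted p = 0.064, limma). Those of the third and last *Thrb* probes were −0.93 and −0.77 (adjusted p = 0.046 and 0.11, limma). These ratios kept their sign and were under 2-fold. The 3′ *Thra* probe was then near 0, as given above, and *Dio2* was at −0.57 (adjusted p = 0.17, limma). The higher calls of *Ttr* and *Slco1c1* did not change under it. It gave 3745 higher and 1842 lower of all tested probes, against 1833 and 2629 with the loess curve, and moved the median log2 ratio of all tested probes from −0.04 to 0.09.

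By percentile rank, the study's own scale for expression in CPE, 2 of the 12 probes were in the high class (above the 90th percentile), 7 in the moderate class (50th to 90th), 3 in the low class (10th to 50th) and 0 in the very low class. Ranked over probes well above background in CPE alone, *Crym* was at 40.2, the *Thrb* probes near the 3′ end at 42.6 and 19.4 and *Dio2* at 6.76, all below the moderate class. Ranks of different probes are not ranks of transcript amounts. The *Thra* probes ranked at 85.1 and 88.7, the *Thrb* probes from 22.6 to 74.2, *Crym* at 73.2, *Dio2* at 54.0 and *Dio1* at 13.3. *Dio2* was at 56.8 and 60.6 in mice 1 and 2 and at 39.5 in mouse 3, and the second *Thrb* probe at 49.4 and 50.6 against 6.43. The ranks of the dim probes thus differed most on the array of mouse 3, while those of *Ttr*, *Slco1c1*, *Crym* and the 3′ *Thra* probe stayed within 3 points or less.

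**Figure D3:**
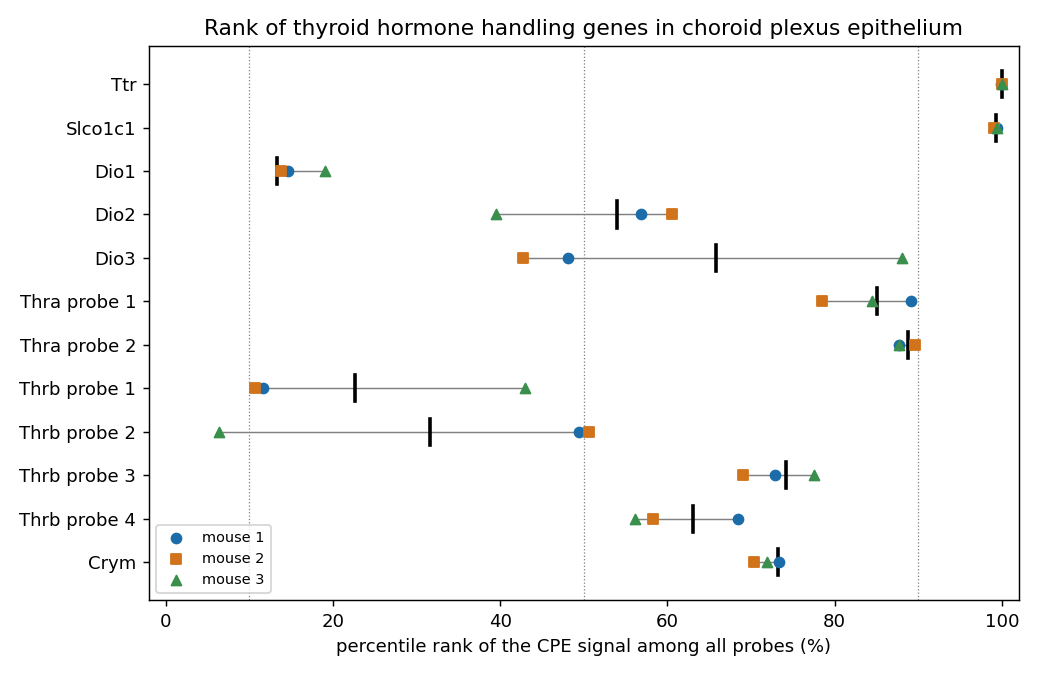
Percentile rank of the CPE signal of each probe among the 41174 probes of the array, with 1 point per mouse, a grey line over their range and a black bar for the rank of the mean level, which can fall outside that range. Dotted lines at 10, 50 and 90 part the very low, low, moderate and high classes. *Dio3* moved from 42.7 in mouse 2 to 88.0 in mouse 3, while *Ttr* and *Slco1c1* stayed above 99 in all mice.

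Of 39 further genes of the pathway, each read at the probe brightest over both channels, 33 were tested. Of these, 4 passed the threshold with a higher signal in CPE, where 8.79% of 15380 genes did, and 4 with a lower one, where 11.3% did. Their median log2 ratio was −0.12, and that of all genes −0.02. Neither count is read as a result about the list.

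Among 11 genes for uptake, 10 were tested. *Slco1a5*, an organic anion transporter, was higher in CPE, with log2 ratios of 1.83, 1.98 and 1.09 in mice 1, 2 and 3 (mean 1.63, SE 0.20, adjusted p = 7.9e-04, limma), and its other probe was at 1.37. *Slco4a1*, another member of that family, was lower at −3.23, −2.70 and −3.0 (mean −2.98, SE 0.17), but its size is uncertain. The probe was tested through the reference, where it was well above background on all arrays, while in CPE it was so in mice 1 and 2 alone and read 1.16 times the negative controls in mouse 3, under their 95th percentile. The scanner's own ratio gave −4.44. The amino acid transporter subunits *Slc7a5*, *Slc7a8* and *Slc3a2*, which also carry thyroid hormone, had log2 ratios of −0.66, −0.15 and 0.04 (adjusted p = 0.010, 0.47 and 0.87, limma). None was past the threshold, but *Slc7a5* was lower in every mouse and missed only the 2-fold limit.

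For transport in blood and the partners of transthyretin, 5 of 6 genes were tested. *Stra6*, a receptor for the retinol binding protein, was past the threshold, but its log2 ratios were 2.01, 1.26 and 0.17 in mice 1, 2 and 3 (mean 1.15, SE 0.31, adjusted p = 0.023, limma). Without mouse 1 it was 0.72 with an adjusted p of 0.12, so this call rested on mouse 1. *Rbp4*, the retinol binding protein itself, had log2 ratios of 0.83, 1.30 and 0.21 (mean 0.78, SE 0.22, adjusted p = 0.026, limma) and was under 2-fold. But *Rbp4* was past the threshold without mouse 3, at 1.07, and with the scanner's own ratio, at 1.13. *Lrp2*, or megalin, an endocytic receptor, was lower at −3.17, −2.85 and −2.85 (mean −2.96, SE 0.16), as was its other probe near the 3′ end at −2.37. In CPE of mice 1, 2 and 3 the first read 3.57, 3.00 and 1.58 times the negative controls. The other read 2.82, 1.98 and 1.68 times, so the size of both ratios is uncertain. The first was between −3.52 and −2.47 over the alternatives. The remaining *Lrp2* probes were at −0.34 and −0.15 and not past the threshold (adjusted p = 0.22 and 0.50, limma).

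All 9 genes for receptor partners were tested. *Rxrg*, a retinoid X receptor, was lower at −1.52, −1.05 and −0.58 (mean −1.05, SE 0.20, adjusted p = 0.0057, limma). In CPE its probe read 1.63, 1.48 and 1.81 times the negative controls, so the size of its ratio is uncertain. *Rxrg* was under 2-fold without mouse 1, at −0.82, and without background correction, at −0.90. The brightest probe of *Med1*, a coactivator subunit, was lower at −0.66, −1.49 and −1.39 (mean −1.18, SE 0.20, adjusted p = 0.0032, limma), while its other probes were at 0.25 and −0.08 and were not past the threshold, so the probes of *Med1* disagreed, and the brightest was at −0.76 with median centring. *Rxra*, the receptor partner, was at −0.46, 0.47 and −0.36 (mean −0.12, SE 0.21, adjusted p = 0.69, limma), with a sign that differed between mice.

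No gene of the other groups was past the threshold. These were 6 tested genes for conjugation and selenoprotein synthesis (median log2 ratio −0.15), which the deiodinases need for their selenocysteine, and 2 tested of 3 hormone responsive genes, *Klf9* and *Thrsp*, with mean log2 ratios of 0.29 and −0.25 (adjusted p = 0.59 and 0.38, limma). *Klf9* was at 1.02 and 0.95 in mice 1 and 3 and at −1.09 in mouse 2. *Iyd*, which recycles iodide, was not well above background on any array in either channel.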

How the data were processed

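CPE of 3 mice was compared with an RPE/choroid reference on 2-colour Agilent arrays, 1 array a mouse. The members and gene lists were chosen with earlier results of these data known. The authors deposited scanner output of Agilent Feature Extraction 9.5.3.1, with mean and local background intensity per spot in both channels, a log10 ratio of red over green, and a table of log2 levels that they normalized between arrays with limma in R 2.14.0 (per the labels). Its medians were 6.99, 6.93 and 6.90; it followed the CPE channel (rank correlations of 0.9985, 0.9977 and 0.9989), with no direction and its centring unstated.

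From these intensities, background was corrected by normexp with an offset of 50, spots of a probe were averaged, and ratios were normalized by loess within arrays with control spots at weight 0 (limma 3.58.1, R 4.3.3). Probes for which 1 channel or both exceeded background clearly on each of the 3 arrays, by the scanner's own flag, were fitted with lmFit and eBayes, with Benjamini-Hochberg adjustment over 25844 probes. Past the threshold means an adjusted p below 0.05 and at least 2-fold. Percentiles follow the methods of the study: log2 mean intensity without background correction, normalized between arrays by Aquantile, averaged over mice and ranked. Saturated probes have a bound, from the same loess-normalized values after Aquantile. Summed marker levels use those values, unlogged, at the brightest probe of each gene.

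The p-values rest on the spread between these 3 mice, with the variance of each probe drawn by limma toward that of all tested probes. At *Dio2*, for example, the SD over the mice was 0.093 and the SE 0.15. With 1 array a mouse, spread between mice and between arrays cannot be told apart. The p-values leave out the spread of the reference, which is 1 RNA. For *Ttr*, whose CPE value is a ceiling, the p-value does not measure the spread between mice. The number of arrays limits the precision. Each array lay on a slide of its own, and those of mice 1 and 3 were scanned on the same day, so the values without mouse 2 are those within that day. Named were all 12 probes, each list gene past the threshold, *Rbp4*, *Stra6*, *Lrp2*, *Rxra* and *Nr1d1* whatever their values, and, for each called member unsaturated in both channels, the 3 genes nearest in ratio. Some items that this rule names are not reported here. Other list genes were named after their values were seen. The fit was tested on simulated data. Coordinates of probes are on mm8, from the scanner files, and promoter sequences are from RefSeq on GRCm38.p6, and the builds were not mixed. Of the 12 probes, 10 carry an accession that RefSeq gives to the same gene, and the other 2 are the *Thrb* probes nearest its 3′ end.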

Additional observations from a re-analysis of the deposited data

How the results depend on the processing

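Over the alternatives, 154 of 178 log2 ratios of the member and named pathway probes kept their direction and their side of the threshold. *Ttr* (2.51 to 3.57) and *Slco1c1* (2.75 to 3.71) did so under all 9. Of the 9 tested member probes, 5 were past the threshold, but 2 with median centring in place of loess and 2 when tested by treat against a 2-fold change, and 4 to 5 when a mouse was left out. Of the 25844 tested probes of the array, 4462 were past it with the main settings, 5587 with median centring and 1412 by treat. With a mouse left out, 4037 to 5315 were. The last *Thrb* probe was under 2-fold without background correction (−0.91), with array weights (−0.95) and without mouse 2 (−0.84). *Dio2* was past the threshold with the scanner's own ratio (−1.01, adjusted p = 0.025, limma). The 3′ *Thra* probe was at −0.085 with median centring (adjusted p 0.0041 to 0.87 over the alternatives, limma). Values not past the threshold changed sign: *Dio3* to −0.16 with the scanner's ratio and −0.044 with median centring, *Rxra* to 0.47 with median centring, and, with a mouse left out, the 5′ *Thra* probe (−0.10 to 0.41) and *Rxra* (−0.41 to 0.052). Of the 33 tested pathway genes, 8 were past the threshold, 3 by treat, and 17 by the adjusted p alone. By the adjusted p alone 39.2% of all tested probes were past it, a share over probes and not over genes, which was not computed. When a mouse was left out, 5 to 10 pathway genes were past the threshold. The 5 were without mouse 1, where *Stra6* and *Rxrg* (−0.82) were among those not past it, and without mouse 3 *Rbp4* (1.07) and *Nr1d1* (1.05) were. With the scanner's own ratio *Rbp4* (1.13) and *Nr1d1* (1.05) were also past it, and with array weights *Nr1d1* (1.05) was. *Med1* was under 2-fold with median centring (−0.76). Of the probes in the high class, 2 by the study's procedure, 1 was there by the deposited levels, which hold no value for *Ttr*. Ranked over probes well above background alone, *Dio2* was at 6.76, in the very low class, and *Crym* (40.2) and the 3′ *Thrb* probes (42.6 and 19.4) fell from moderate to low. Other causes were not tested. Signal near the negative controls limits *Dio1*, *Dio2*, *Dio3*, the 5′ *Thrb* probes and, in CPE of mice 2 and 3, the last *Thrb* probe. The scanner's ceiling limits *Ttr*. No paired analysis was possible because there is 1 group.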
